A study of Mus musculus with 9 samples.

Results

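The cardiac myosin heavy chain genes Myh6, Myh7 and Myh7b encode motor proteins of the thick filament of heart muscle. NR4A2 ChIP-seq regions at these genes were taken from a table of 16884 genomic regions as every region that touched the RefSeq span of a gene (build GRCm38) extended by 10 kb on each side. This gave 8 regions, 4 on a continuous stretch of chromosome 14 that holds Myh6 and Myh7 and 4 at Myh7b on chromosome 2. The rule uses position alone, although the genes were chosen with earlier results of these data known.

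Chromatin came from heart ventricle of 3 Nr4a2-icTg mice and 3 control littermates. Nr4a2-icTg mice (NR4A2 mice below) carry a conditional Nr4a2 knock-in at ROSA26 together with the transgene Tg(Myh6-cre/Esr1*)1Jmk, an inducible Cre recombinase called αMHC-MerCreMer. Control mice carry αMHC-MerCreMer alone. The Cre is driven by the promoter of Myh6, which is active in cardiomyocytes, so the hearts of both groups hold additional Myh6 promoter DNA. All mice were 8 to 9 weeks old when they received 1 injection of tamoxifen at 40 mg/kg, and all were studied at day 3, per the labels. Each mouse gave 1 library, so n = 3 in each group throughout.

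Myh6 encodes the fast α-myosin heavy chain that predominates in the adult mouse ventricle, and Myh7 encodes the slow β-chain that predominates before birth and returns under stress. Myh7b encodes a related slow-type myosin. Each of the 3 genes carries a microRNA in an intron: miR-208a lies in Myh6, miR-208b in Myh7 and miR-499 in Myh7b. Between Myh6 and Myh7, and running into Myh7, lies the long noncoding RNA gene Mhrt (Myheart), known in mouse as an antisense transcript of the Myh7 locus. NR4A2 is an orphan nuclear receptor known to bind as a monomer to the NBRE element AAAGGTCA.

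The mature microRNAs are shown because the ChIP regions cover the hosts unequally, with miR-208a and miR-208b inside the long regions and miR-499 outside any region. Capitals mark the seed, bases 2 to 8 from the 5′ end (RefSeq, GRCm38.p6).
mmu-miR-208a-3p: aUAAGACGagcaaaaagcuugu
mmu-miR-208b-3p: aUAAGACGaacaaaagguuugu
mmu-miR-499-5p: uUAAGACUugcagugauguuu

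The microRNAs of Myh6 and Myh7 share the seed UAAGACG and differ elsewhere at 3 positions, G10A, A16G and C18U (miR-208a-3p base first, position from the 5′ end, then miR-208b-3p base). The seed of miR-499-5p differs from theirs at 1 position, G8U. Mir208a lay within the long region over Myh6, and Mir208b within the long region over Myh7. The nearest region to Mir499 was 1484 bp away.

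The 250 bases before 1 annotated start of each myosin gene are shown because all of Myh6 and Myh7 at this point, and 231 of the 250 bases at Myh7b, lay within a ChIP region (RefSeq, GRCm38.p6, sense strand of each gene, 5′ to 3′). Capitals mark every match to AGGTCA on either strand, extended to the longest motif found there. The windows are chr14:54966608-54966857 (minus strand) for Myh6, chr14:54994627-54994876 (minus strand) for Myh7 and chr2:155610993-155611242 (plus strand) for Myh7b. The Myh6 start used here and below, base 54966607, lies inside the RefSeq span of the gene, which reaches further upstream to base 54968017, so the Myh6 window is not the sequence before the whole span.
Myh6: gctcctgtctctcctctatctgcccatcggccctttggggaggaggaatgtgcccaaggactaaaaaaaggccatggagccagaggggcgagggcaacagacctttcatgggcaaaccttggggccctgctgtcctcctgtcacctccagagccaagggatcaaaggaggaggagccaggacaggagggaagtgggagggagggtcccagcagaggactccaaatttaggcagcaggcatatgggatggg
Myh7: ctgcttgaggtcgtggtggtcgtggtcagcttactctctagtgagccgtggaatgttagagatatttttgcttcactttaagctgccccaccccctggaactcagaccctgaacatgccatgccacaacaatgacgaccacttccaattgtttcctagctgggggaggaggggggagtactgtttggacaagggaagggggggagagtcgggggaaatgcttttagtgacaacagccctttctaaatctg
Myh7b: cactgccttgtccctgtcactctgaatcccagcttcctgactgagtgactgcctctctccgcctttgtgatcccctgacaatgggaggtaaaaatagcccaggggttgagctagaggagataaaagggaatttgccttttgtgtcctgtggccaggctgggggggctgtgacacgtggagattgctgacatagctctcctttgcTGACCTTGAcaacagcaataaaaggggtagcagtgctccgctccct

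The NBRE letters AAAGGTCA were on neither strand of the 3 windows. The rest of the ChIP regions, and all of the called ones, could not be searched, because their sequence was not available here. Whether they hold the NBRE is therefore not known. The Myh7b window held 1 match to TCAAGGTCA, the letters known as the estrogen-related receptor element, on the strand opposite to the gene, 46 to 38 bases before the start. This match contains the shorter searched letters AAGGTCA and AGGTCA, so the 3 hits are a single place. Among 32841 windows of 250 bases before RefSeq gene starts, searched on both strands, 1.34% held AAAGGTCA, 0.387% held TCAAGGTCA, 4.08% held AAGGTCA and 14.0% held AGGTCA. The direct repeat DR5, AGGTCA repeated after a gap, was in 3 of all windows, and the NurRE element was in 0. Neither was found at the myosin genes.

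Values are CPM, which the authors scaled to the reads that each library had in the listed regions. Reads in regions numbered 637635 to 1035856 in NR4A2 libraries and 549700 to 1027394 in control libraries, and control mouse 3 was the shallowest. A region was called when its limma p, adjusted by Benjamini and Hochberg over all 16884 regions, was under 0.05. Of the 10 ventricular cardiomyocyte marker genes checked, 10 had a region, against 2 of 4 atrial, 3 of 5 fibroblast, 3 of 4 endothelial, 1 of 3 smooth muscle, 1 of 4 immune and 1 of 5 skeletal muscle markers. The share of all genes that had a region was not worked out, so no difference between cell types is drawn from these counts. Both atrial marker genes with a region had a higher one, where 14.2% of all genes did, and Nppa and Sln had no region. The summed signal of the atrial list was 104 to 123 CPM in NR4A2 mice and 55.5 to 86.9 CPM in control mice. Of 10 ventricular marker genes, 6 had a higher and 3 a lower region, where 14.2% and 6.25% of all genes did. By region, 21 of 255 ventricular regions were higher and 7 lower, where 14.7% and 3.17% of all regions were. Of the 255, 183 lay at or near a single gene, Ttn. The endothelial marker Pecam1 had a lower region, and the other lists had no called region. The part of the atrial markers in the myosin results was not tested. Of 4 regions at Nr4a2 itself, the most strongly called averaged 90.3 CPM in NR4A2 mice and 13.1 CPM in control mice (limma, adjusted p = 8.90e-09). Another was also higher (24.8 and 8.31 CPM, limma, adjusted p = 0.0340). The remaining Nr4a2 regions were not called, at 71.6 and 74.9 CPM and at 12.3 and 29.5 CPM (limma, adjusted p = 0.837 and 0.0736). Only NR4A2 mice carry the Nr4a2 knock-in, and the part of its DNA in these values was not tested. At the ROSA26 locus of the knock-in, the most strongly called region averaged 291 CPM in NR4A2 mice and 128 CPM in control mice (limma, adjusted p = 1.01e-07).

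Over the 8 regions, 2 were higher in NR4A2 mice, where 14.7% of all regions were, and 1 was lower, where 3.17% of all regions were; in either direction 17.8% of all regions were called. The higher ones were a short region at the 3′ end of Myh7 and a region upstream of Myh7b, and the lower one lay inside Myh7b. All NR4A2 mice lay above all control mice at 2 regions and below them at 1, where 19.9% and 11.7% of all regions did so. The median log2 fold change was 0.24 over the 8 regions and -0.06 over the whole table. The authors' deposited table marked 2 of the 8 as up-regulated and 0 as down-regulated, where it marked 14.9% and 1.95% of all regions so. All regions it marked had an FDR under 0.05. Their smallest absolute log2 fold changes were 0.698 (up-regulated) and 0.694 (down-regulated), whereas the limma calls set no limit on fold change.

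Myh6 and Myh7 carried the longest and strongest NR4A2 ChIP regions of the table in both groups. The 4 regions on chromosome 14 together spanned 71832 bp, from base 54936655 to base 55008486, and covered 99.2% of it, with gaps of 277, 9 and 276 bp. They covered 100% of the Myh6 span (54941921 to 54968017) and 97.7% of the Myh7 span (54970684 to 54994626). They held 2.63, 2.98 and 2.39% of the CPM of NR4A2 mice 1, 2 and 3, and 2.76, 2.41 and 1.85% of that of control mice 1, 2 and 3. These shares overlapped between the groups.

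**Figure D1:**
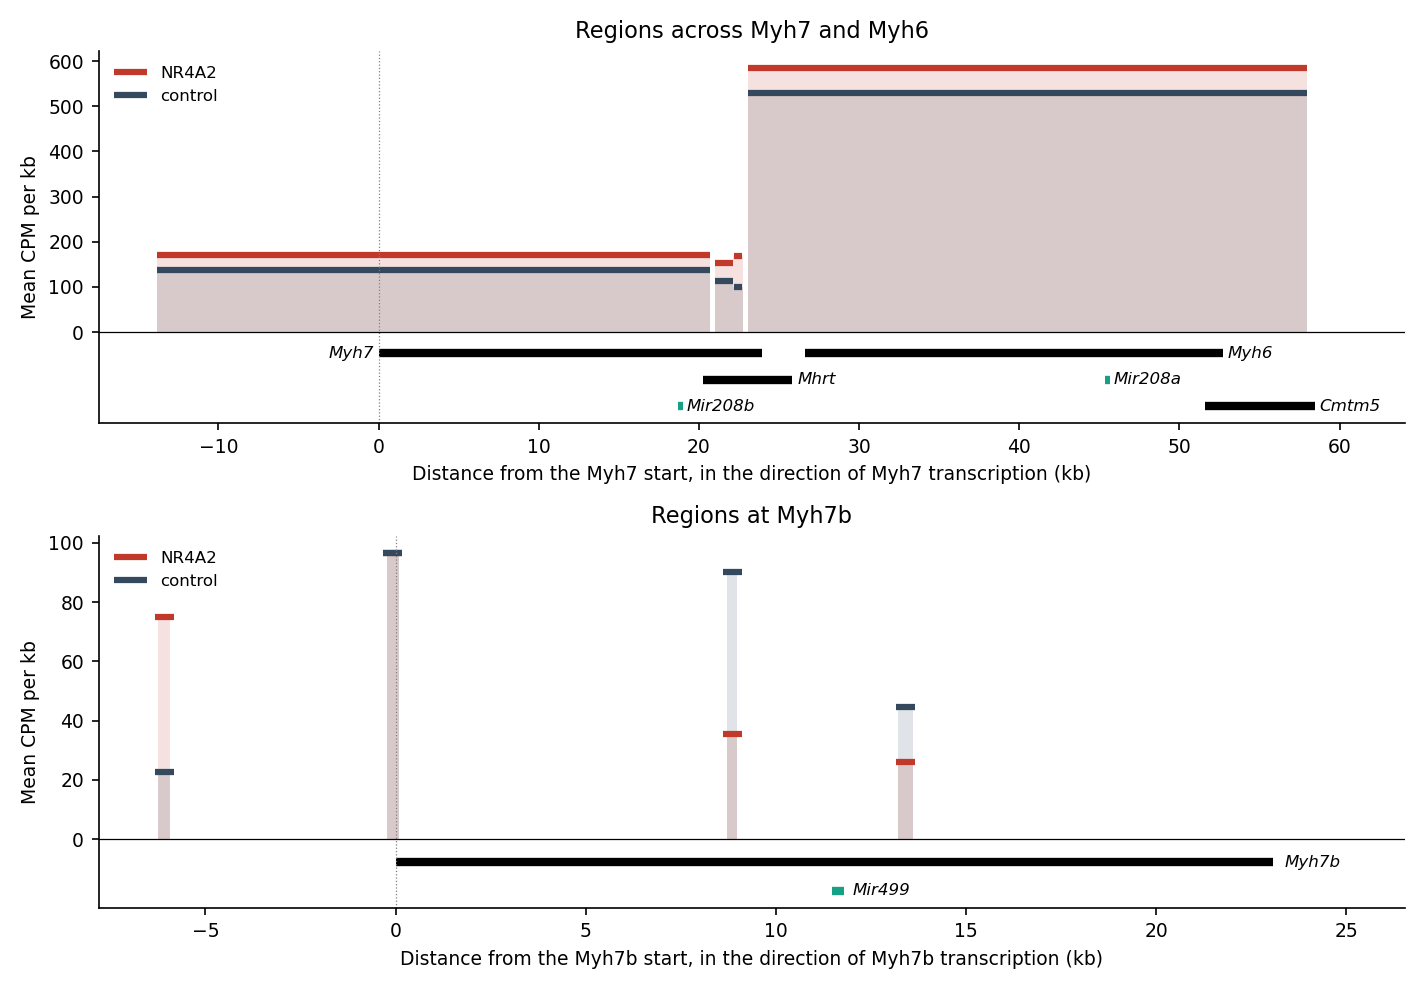
Mean CPM per kb of each region (coloured bars, NR4A2 and control mice, n = 3 each) against distance in kb from the start of Myh7 (top) or Myh7b (bottom), with annotated genes below the axis; marks of regions and microRNAs too short to see are widened. Signal was continuous over Myh7 and Myh6, whereas Myh7b carried 4 short separate regions. CPM per kb was highest in the long region over Myh6, at 585 in NR4A2 mice and 530 in control mice.

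The long Myh6 region (chromosome 14, 54936655 to 54971572) was 34918 bp long, from position -4965 relative to the Myh6 start to beyond the 3′ end of the gene. It ranked 1 of 16884 in length and in mean CPM and 5 in CPM per kb. It also overlapped most of Cmtm5, a gene of the chemokine-like factor family, 889 bp at the 3′ end of Myh7, and 2786 bp of Mhrt. Its signal was 20027, 22709 and 18595 CPM in NR4A2 mice 1, 2 and 3, and 22443, 18779 and 14245 CPM in control mice 1, 2 and 3. Control mouse 3 was the lowest of the 6 and the groups overlapped. The means were 20444 ± 2088 CPM in NR4A2 mice and 18489 ± 4107 CPM in control mice (SD, n = 3 each). The log2 fold change was 0.16 ± 0.14 (SE; 95% interval -0.12 to 0.45; limma, adjusted p = 0.494), so this region was not called, and a rise of up to 0.45 or a fall of up to 0.12 on the log2 scale lay within the interval. Without control mouse 3 the log2 fold change was -0.01, a change of sign, and it was 0.09 without NR4A2 mouse 2 and 0.32 without control mouse 1.

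Reads from the Myh6 promoter of the Cre transgene cannot be told apart from reads of the gene itself in these values. Esr1, the estrogen receptor gene named in the transgene's label, carried 2 short regions on chromosome 10, 270 and 245 bp long. These had the highest CPM per kb of the table, 2229 and 2150 on average over the 6 mice, against 557 for the long Myh6 region. At the longer of them the signal was 665, 823 and 515 CPM in NR4A2 mice and 710, 576 and 322 CPM in control mice. Neither Esr1 region was called (limma, log2 fold changes 0.36 ± 0.30 and 0.15 ± 0.15 SE, adjusted p = 0.494 and 0.556). Within each group the longer Esr1 region ranked the mice in the same order as the long Myh6 region did, and so did the long Myh7 region, and the part of the transgene in the Myh6 signal was not tested.

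The long Myh7 region (chromosome 14, 54973906 to 55008486) was 34581 bp long and ranked 2 in length and in mean CPM. It began inside Myh7 and ran 13860 bp beyond the start of the gene. The region also holds the annotated gene Gm31251 (54975264 to 55005006), which overlaps Myh7 and extends beyond its start. NR4A2 mice 1, 2 and 3 had 5743, 6874 and 5115 CPM, and control mice 1, 2 and 3 had 5237, 5059 and 3991 CPM. The values of the groups overlapped only through NR4A2 mouse 3, which lay below control mouse 1. The log2 fold change was 0.31 ± 0.14 (SE; 95% interval 0.03 to 0.59; limma, adjusted p = 0.123), and the region was not called. It was 0.20 without NR4A2 mouse 2 and 0.19 without control mouse 3.

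Per length, the signal of the long Myh6 region was 3.27 to 3.60 times that of the long Myh7 region in the NR4A2 mice. In the control mice it was 3.53 to 4.24 times. Both regions reach beyond their gene and have 1 value each, so the signal over each gene alone is not known. The long Myh7 region averaged 171 ± 25.8 CPM per kb in NR4A2 mice and 138 ± 19.5 CPM per kb in control mice (SD, n = 3 each), against a median over all regions of 84.7 CPM per kb. In each of the 6 mice the long Myh6 region was therefore denser than any other region at the 3 genes. The third longest region of the table was 28336 bp, and the third strongest averaged 3766 CPM.

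**Figure D2:**
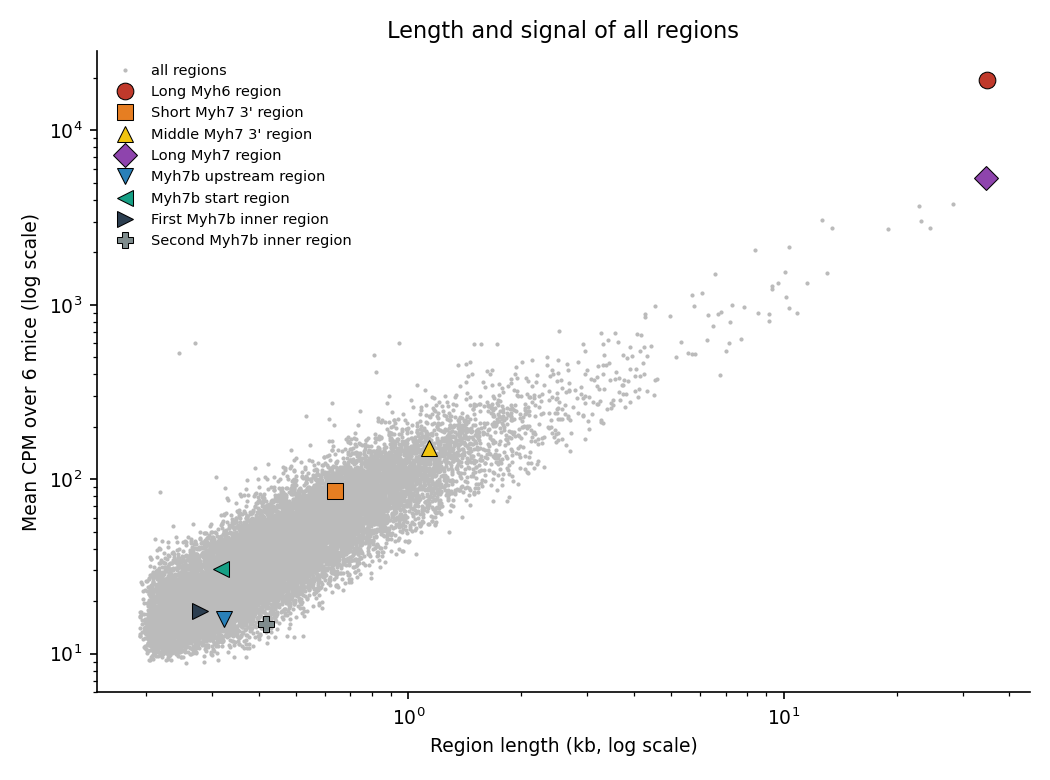
Mean CPM over 6 mice against region length in kb, both on log scales, for all 16884 regions (grey) and the 8 myosin heavy chain regions (coloured). The long Myh6 and Myh7 regions stand at the far right with 19467 and 5336 CPM, whereas the 4 Myh7b regions lie among the shorter and weaker ones at 14.8 to 30.6 CPM.

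Between the 2 long regions lay a pair of short regions inside the 3′ part of Myh7, both also within Mhrt. The short region next to Myh6 (chromosome 14, 54971850 to 54972486, 637 bp) was the 1 region of this stretch that was called. Its signal was 82.1, 132 and 107 CPM in NR4A2 mice 1, 2 and 3, and 69.7, 74.0 and 47.1 CPM in control mice 1, 2 and 3. All NR4A2 mice lay above all control mice, although NR4A2 mouse 1 and control mouse 2 were close. The means were 107 ± 25.1 CPM in NR4A2 mice and 63.6 ± 14.5 CPM in control mice, and the signal rose by a log2 fold change of 0.75 ± 0.23 (SE, limma, adjusted p = 0.0129). The call ended without NR4A2 mouse 2 (adjusted p = 0.126), NR4A2 mouse 3 (0.0751) or control mouse 3 (0.0893), with DESeq2 on recovered reads (0.0697), and with no scaling for depth (0.493). In the authors' deposited table it was marked as up-regulated, with a log2 fold change of 0.70 and an FDR of 0.0146.

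The middle region (chromosome 14, 54972496 to 54973629, 1134 bp), 9 bp away, had 181, 214 and 122 CPM in NR4A2 mice 1, 2 and 3, and 148, 138 and 101 CPM in control mice 1, 2 and 3. NR4A2 mouse 3 fell below 2 of the control mice. Its log2 fold change was 0.40 ± 0.19 (SE; 95% interval 0.02 to 0.78; limma, adjusted p = 0.152). It was 0.63 without NR4A2 mouse 3, the 1 of 13 alternatives in which the region was called (adjusted p = 0.0447), 0.22 without NR4A2 mouse 2 (0.555) and 0.23 without control mouse 3 (0.470).

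**Figure D3:**
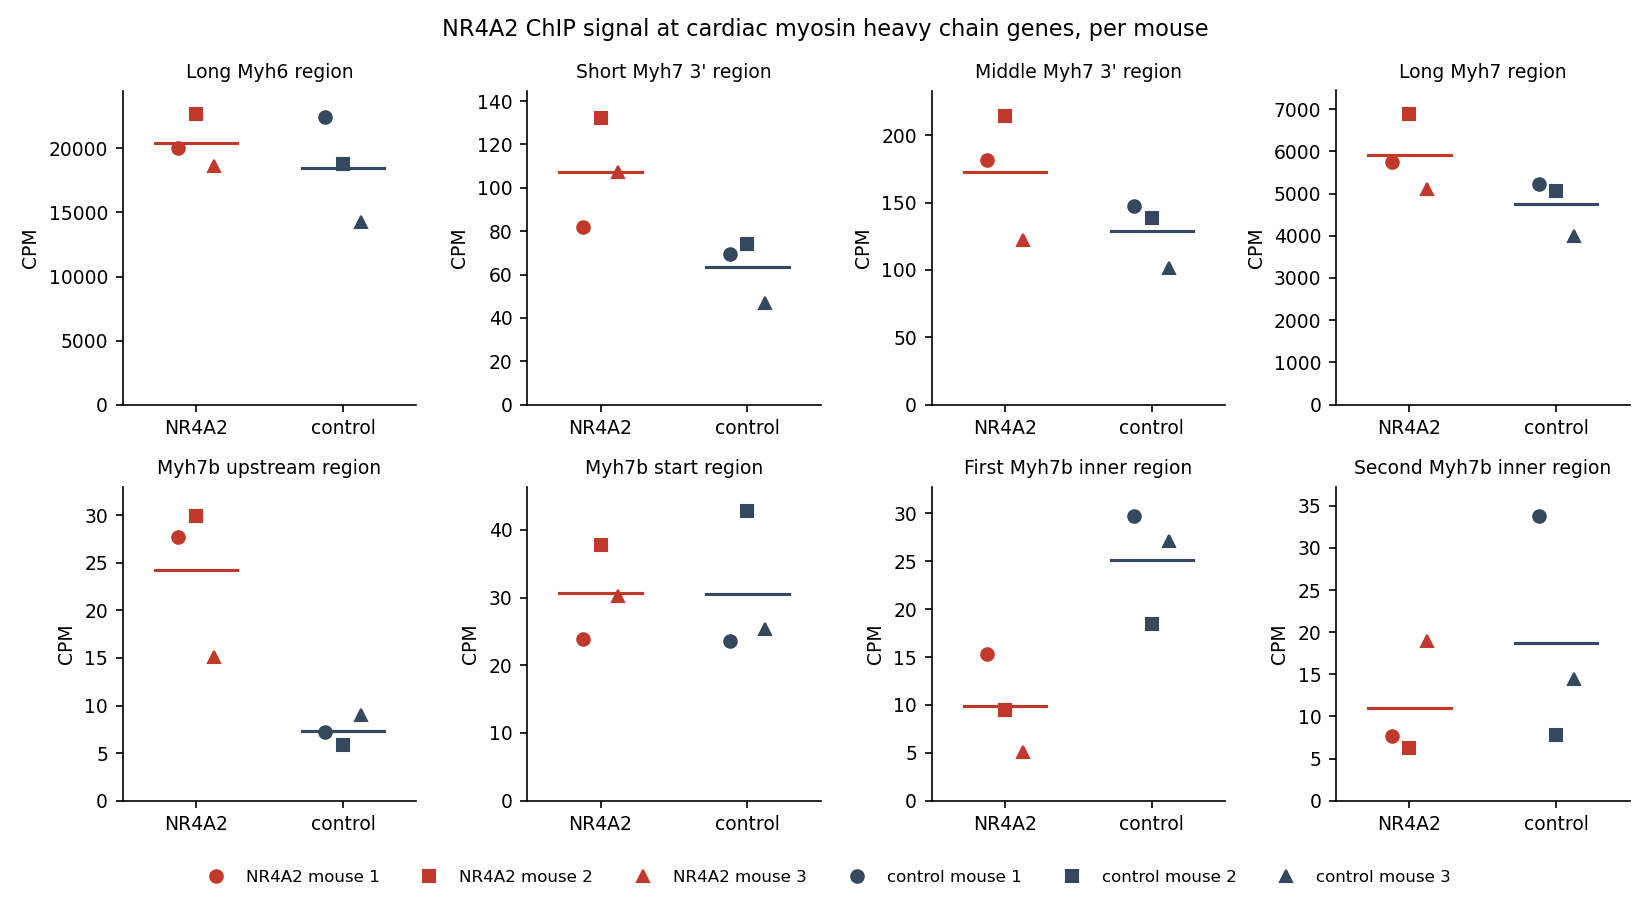
CPM of each mouse (symbols; circle mouse 1, square mouse 2, triangle mouse 3) and group mean (line) at the 8 regions, NR4A2 left and control right, with a separate axis from 0 for each region. Groups are separate at the short Myh7 3′ region and the Myh7b upstream region, where NR4A2 mice are higher, and at the first inner Myh7b region, where they are lower.

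Ratios between regions within a mouse do not depend on how its library was scaled. The long Myh7 region had 28.7, 30.3 and 27.5% of the CPM of the long Myh6 region in NR4A2 mice 1, 2 and 3, and 23.3, 26.9 and 28.02% in control mice 1, 2 and 3. These overlapped, and the difference was 0.15 on the log2 scale (exact permutation test, two-sided, p = 0.20) and 0.07 without control mouse 1. The short called region had 0.410, 0.583 and 0.577% of the CPM of the long Myh6 region in NR4A2 mice, and 0.310, 0.394 and 0.330% in control mice. Here the groups did not overlap, with a difference of 0.59 on the log2 scale (exact permutation test, two-sided, p = 0.10, the smallest that 3 against 3 mice can give). Against the long Myh7 region the short region had 1.43, 1.93 and 2.10% in NR4A2 mice and 1.33, 1.46 and 1.18% in control mice, which overlapped (exact permutation test, two-sided, p = 0.20). Adjusted over these 3 ratios, which were chosen after the values had been seen, each p was 0.20.

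**Figure D4:**
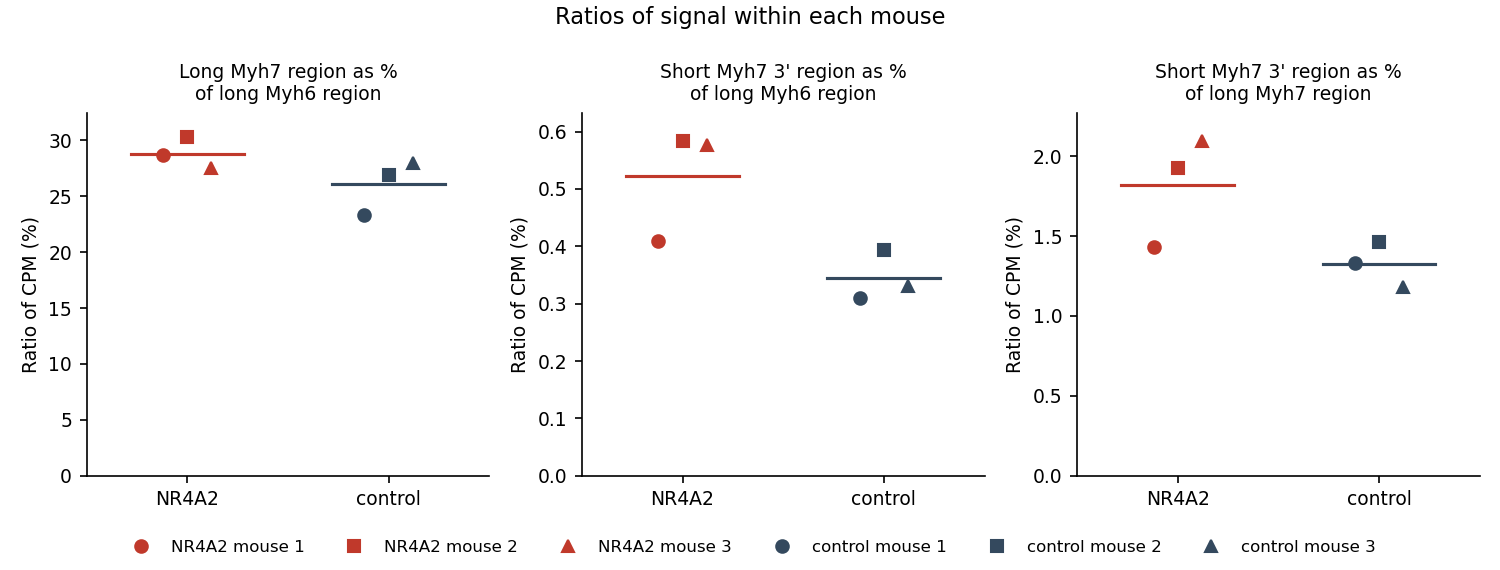
Signal of 1 region as a percent of another in the same mouse (symbols as circle, square and triangle for mice 1, 2 and 3) with group means (lines), NR4A2 left and control right, axes from 0. The ratio of the long Myh7 to the long Myh6 region lies between 23.3 and 30.3% in all mice, and the ratio of the short region to the long Myh6 region is the 1 in which the groups are separate.

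At Myh7b (chromosome 2, 155611243 to 155634307) the 4 regions were short and weak, and they did not move together. They covered 1337 bp in all, and 3.39% of the gene span. Of them 1 was higher, 1 was lower and 2 were not called.

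The upstream region (chromosome 2, 155604996 to 155605318, 323 bp) lay at positions -6247 to -5925 relative to the Myh7b start, outside any annotated gene. Its signal was 27.7, 29.9 and 15.1 CPM in NR4A2 mice 1, 2 and 3, and 7.17, 5.84 and 9.05 CPM in control mice 1, 2 and 3, from 12 to 29 reads in NR4A2 libraries and 5 to 7 reads in control libraries. The groups did not overlap. Mean signal was 24.3 ± 7.98 CPM in NR4A2 mice and 7.35 ± 1.61 CPM in control mice, and it rose by a log2 fold change of 1.56 ± 0.53 (SE, limma, adjusted p = 0.0293). The authors' deposited table marked it as up-regulated, with a log2 fold change of 1.74. The call ended without NR4A2 mouse 1 (adjusted p = 0.126), NR4A2 mouse 2 (0.164), control mouse 1 (0.0539) or control mouse 2 (0.0756), and with no scaling for depth (0.158).

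The start region (chromosome 2, 155611012 to 155611328, 317 bp) ran from 231 bp before to 85 bp after the Myh7b start and so held the TCAAGGTCA match printed above. NR4A2 mice 1, 2 and 3 had 23.9, 37.8 and 30.3 CPM, and control mice 1, 2 and 3 had 23.6, 42.8 and 25.3 CPM. Mouse 2 was the highest in both groups, and the group means were 30.7 ± 6.99 CPM in NR4A2 mice and 30.6 ± 10.6 CPM in control mice. The log2 fold change was 0.03 ± 0.36 (SE; limma, adjusted p = 0.969). Its 95% interval ran from -0.69 to 0.75, so changes within that range were not excluded here.

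The first inner region (chromosome 2, 155619951 to 155620229, 279 bp) lay 8708 to 8986 bp after the start. It had 15.3, 9.46 and 5.05 CPM in NR4A2 mice 1, 2 and 3, and 29.7, 18.5 and 27.2 CPM in control mice 1, 2 and 3. All NR4A2 mice lay below all control mice, with as few as 4 reads in NR4A2 mouse 3. The means were 9.93 ± 5.13 CPM in NR4A2 mice and 25.1 ± 5.88 CPM in control mice, and the signal fell by a log2 fold change of -1.34 ± 0.50 (SE, limma, adjusted p = 0.0478). This call held without NR4A2 mouse 1 (adjusted p = 0.0281) and ended without any 1 of the other 5 mice: 0.0659 without NR4A2 mouse 2, 0.194 without NR4A2 mouse 3, and 0.196, 0.0591 and 0.139 without control mice 1, 2 and 3. It also ended with edgeR (0.0652) and DESeq2 (0.107) on recovered reads and with no scaling for depth (0.212), and the authors' deposited table marked it as unchanged.

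The second inner region (chromosome 2, 155624442 to 155624859, 418 bp), the nearest to Mir499, had 7.64, 6.31 and 18.9 CPM in NR4A2 mice 1, 2 and 3, and 33.8, 7.79 and 14.5 CPM in control mice 1, 2 and 3. The groups overlapped, and control mouse 1 stood above the rest. Its log2 fold change was -0.64 ± 0.57 (SE; 95% interval -1.76 to 0.49; limma, adjusted p = 0.50). Without control mouse 1 it was -0.11 and without NR4A2 mouse 2 -0.36, against -1.08 without NR4A2 mouse 3 and -1.10 without control mouse 2. The region was among the least dense regions of the table, with 0.515% of regions lower in CPM per kb.

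**Figure D5:**
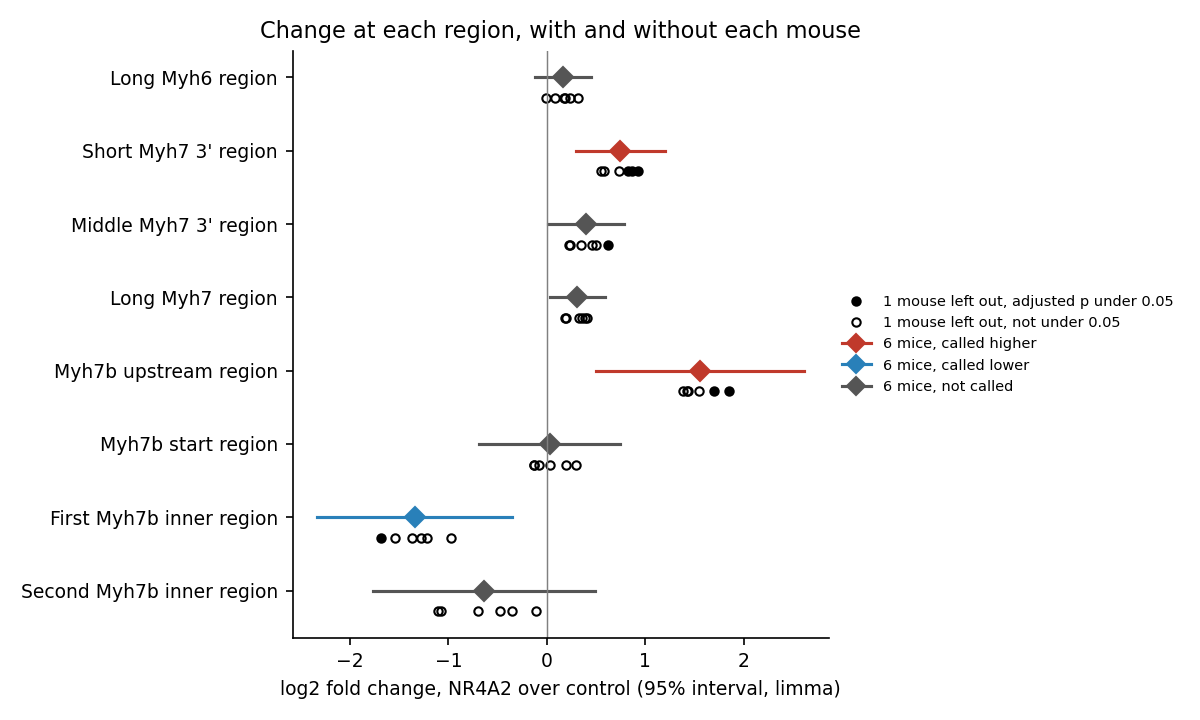
Log2 fold change of NR4A2 over control at each region with its 95% interval (diamonds and lines, limma, 6 mice), and below it the 6 values with 1 mouse left out (filled where the adjusted p was under 0.05, open where not). The 3 called regions, at 0.75, 1.56 and -1.34, keep their direction in every such fit but not their call.

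Summed over all regions within 10 kb, Myh6 and Myh7 have the same 4 regions and therefore the same sum. It was 26034, 29930.0 and 23940 CPM in NR4A2 mice 1, 2 and 3, and 27897, 24051 and 18385 CPM in control mice 1, 2 and 3, over 71270 covered bp. The difference was 0.20 on the log2 scale (exact permutation test, two-sided, p = 0.50), and 0.03 without control mouse 3, 0.11 without NR4A2 mouse 2 and 0.33 without control mouse 1. At Myh7b the sum was 74.5, 83.5 and 69.4 CPM in NR4A2 mice, and 94.3, 74.9 and 76.0 CPM in control mice (difference -0.10, exact permutation test, two-sided, p = 0.50). Within each mouse the sum over Myh6 and Myh7 was 350, 358 and 345 times that at Myh7b in NR4A2 mice and 296, 321 and 242 times in control mice. These ratios did not overlap between the groups (difference 0.30 on the log2 scale, exact permutation test, two-sided, p = 0.10, the smallest possible). The difference was 0.19 without control mouse 3, and with no extension of the gene spans, which leaves out the Myh7b upstream region, it was 0.69 for Myh6 over Myh7b and 0.72 for Myh7 over Myh7b. With no extension, where both sums still hold the long Myh6 region, the Myh6 sum was 0.769, 0.759 and 0.777 of the Myh7 sum in NR4A2 mice and 0.805, 0.781 and 0.775 in control mice, with overlap between the groups (exact permutation test, two-sided, p = 0.20).

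Of 4483 other genes with a mean summed signal of at least 100 CPM, those most like the Myh6 and Myh7 stretch across the 6 mice were Bcl6, a transcriptional repressor gene, Esr1 and Heatr5b (Pearson's r of log2 summed CPM 0.990, 0.990 and 0.989). Bcl6 had 267, 299 and 261 CPM in NR4A2 mice 1, 2 and 3, and 279, 255 and 221 CPM in control mice 1, 2 and 3. Myh7b was most like Lias, Klb and Rpl9 (r = 0.966), which share the same 2 regions and so have a single profile. These are the highest of all correlations computed, each over 6 mice whose values come from the same libraries and depths.

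Other genes of the myosin motor were read from lists. Of 11 other myosin heavy chain genes, 3 had a region and 2 of these had a higher one, where 14.2% of all 11155 genes with a region did. At Myh8, the perinatal skeletal myosin gene, the region had 18.1, 17.3 and 24.0 CPM in NR4A2 mice and 4.10, 0.973 and 0.00 CPM in control mice (log2 fold change 3.26 ± 0.88 SE, limma, adjusted p = 0.00393). The control values there rested on few or no reads. In control mice 1, 2 and 3, 1 read was worth 1.02, 0.973 and 1.81 CPM. At Myh10, a nonmuscle myosin gene, the region had 36.3, 50.4 and 46.7 CPM in NR4A2 mice and 12.3, 15.6 and 23.5 CPM in control mice (1.36 ± 0.38, limma, adjusted p = 0.00509). The adult skeletal genes Myh1, Myh2 and Myh4 and the smooth muscle gene Myh11 had no region.

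Myosin light chain genes had a region in 10 of 11 cases, with a higher one at 4 genes and a lower one at 1, where 14.2% and 6.25% of all genes did so. By region, 5 of 24 were higher and 2 of 24 lower, where 14.7% and 3.17% of all regions were. The higher ones included Myl1, a skeletal essential chain, at its 1 region (40.0 ± 8.86 CPM in NR4A2 mice, 10.9 ± 1.73 CPM in control mice). Myl2, the ventricular regulatory chain, had 2 of 4 regions higher, the stronger call with 86.2 ± 21.8 CPM in NR4A2 mice and 40.1 ± 4.72 CPM in control mice. The Myl2 region with the most signal averaged 2765 CPM over the 6 mice and was not called (log2 fold change 0.03 ± 0.14 SE, limma, adjusted p = 0.918). Both of these Myl2 regions also lie at or near Ccdc63. Myl3, the ventricular essential chain, had 2 of 7 regions lower, the stronger call with 137 ± 21.6 CPM in NR4A2 mice and 247 ± 78.6 CPM in control mice (log2 fold change -0.81 ± 0.18 SE, limma, adjusted p = 0.000493).

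Among 16 genes of myosin partners with a region, 7 had a higher and 2 a lower one, with 1 gene in both counts, where 14.2% and 6.25% of all genes did so. Genes with many regions had more chances of a call: by region, 21 of 283 were higher and 4 of 283 lower, both smaller shares than the 14.7% and 3.17% of all regions. Signal rose at 5 of 12 regions of Smyd1, a methyltransferase needed for thick filament assembly (strongest call, log2 fold change 2.94 ± 0.39 SE, limma, adjusted p = 6.92e-09), at 3 of 22 regions of Myom1, which encodes the M-band protein myomesin (1.5 ± 0.35, 0.000696), and at 9 of 183 regions of Ttn, titin (0.67 ± 0.18, 0.00372), a smaller share than over all regions. It fell at 3 of 14 regions of Mybpc3, cardiac myosin binding protein C, the strongest call with 188 ± 33.6 CPM in NR4A2 mice and 320 ± 31.8 CPM in control mice (-0.77 ± 0.16, limma, adjusted p = 0.000204). The Mybpc3 region also lies near Madd.

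Of 23 genes with a region among known regulators of the cardiac myosin genes, 6 had a higher and 4 a lower one, Tead1 being in both counts, where 14.2% and 6.25% of all genes did so. By region, 9 of 75 were higher, a smaller share than the 14.7% of all regions, and 4 of 75 were lower, where 3.17% of all regions were. Sox6, a repressor of slow-fibre genes in mouse muscle, had 3 of 6 regions higher. The strongest call there had 178 ± 7.56 CPM in NR4A2 mice and 94.0 ± 25.98 CPM in control mice (log2 fold change 0.95 ± 0.19 SE, limma, adjusted p = 0.000117). The histone deacetylase gene Hdac4 had 1 of 5 regions higher, with 44.1 ± 2.69 CPM in NR4A2 mice and 14.0 ± 6.50 CPM in control mice (1.66 ± 0.40, limma, adjusted p = 0.00099). Rxra, the retinoid X receptor that partners thyroid hormone receptors and NR4A2, had 1 of 2 regions lower. That region had 72.2 ± 5.63 CPM in NR4A2 mice and 119 ± 27.5 CPM in control mice (-0.70 ± 0.21, limma, adjusted p = 0.0132). Tead1, whose product binds MCAT elements of myosin promoters, had 1 higher and 1 lower region of 3 (2.47 ± 0.53 and -0.66 ± 0.23, limma, adjusted p = 0.000224 and 0.0285). Hdac5 had 1 of 3 regions lower (-0.77 ± 0.28, limma, adjusted p = 0.0435).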

How the data were processed

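NR4A2 ChIP-seq was measured in ventricle of 3 NR4A2 and 3 control mice. The authors deposited 1 table of 16884 regions with a column of CPM per mouse, besides their log2 fold change, p-value and FDR for each region, per the file headers. Per the submitters' processing notes, reads were aligned with BWA, and the build was GRCm38 (mm10). No source used here names the peak caller, how regions were merged, or how the fly chromatin spike-in entered the values. All deposited CPM columns have nearly the same sum (scaling factors 0.991 to 1.01), which hides any shift common to every region. Whole reads were recovered from them (100% of values whole within 0.001 of a read, 1 read being worth 0.955 to 1.81 CPM). The other 3 samples of the series (an antibody test ChIP, its input and a pooled input) have no column and were not used, so no value is relative to input.

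limma 3.58.1 (R 4.3.3), with trend and robust moderation, was fitted to log2(CPM + 1) of all regions with a single term for genotype and without a filter, since the values are CPM. The added 1 understates changes at weak regions. edgeR 4.0.16 called 2574 regions higher and 579 lower on the recovered reads, and DESeq2 1.42.0 was a further alternative. Single values were compared by exact permutation tests over mice. Other alternatives were pseudocounts of 0.5 and 5, a filter at the median CPM, no scaling for depth, other gene extensions, a mouse-number block and each mouse left out. All 8 member regions are described. Of the lists, up to 3 higher and 3 lower genes by adjusted p are named, apart from some that are not reported here. Most alike genes are the 3 with the highest correlation. The members and lists were chosen with earlier results of these data known. Spans, starts and sequences are from RefSeq for GRCm38.p6; the 3 genes matched by symbol, and exons are not given there.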

Additional observations from a re-analysis of the deposited data

How the results depend on the processing

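Over the whole table the 2475 higher and 536 lower regions became 481 and 235 among regions of at least median CPM and 1388 and 14 with no scaling for depth, which also shifted the median log2 fold change to -0.09. DESeq2 gave 251 lower regions. With 1 mouse left out there were 1577 to 2332 higher and 270 to 454 lower regions, the fewest of both without NR4A2 mouse 3, and 354 lower regions without control mouse 3. Of the myosin heavy chain regions, the 2 higher became 1 with the median filter, 1 with DESeq2, 1 with no extension of the gene spans, 0 with no scaling (1 at an unadjusted p under 0.05) and 0 to 2 with 1 mouse left out. The 1 lower became 0 with the median filter, which removes all 4 Myh7b regions, and 0 with edgeR, DESeq2 and no scaling (1 each at an unadjusted p under 0.05), and was 0 to 1 with 1 mouse left out. At the long Myh6 region the log2 fold change ranged over -0.011 to 0.32 when each mouse was left out in turn, the lowest being without control mouse 3, and at the Myh7b start region over -0.13 to 0.29, with -0.0413 by edgeR and -0.0451 by DESeq2. The summed Myh7b signal differed by -0.18 to 0.0018 with 1 mouse left out, the highest being without control mouse 1, and by -0.51 with no extension (exact permutation test, p = 0.10). The cause of these changes was not tested.

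No pairing by mouse number was seen: same-numbered mice correlated at -0.0658, 0.0609 and 0.0326 in their deviations from group means. Mice of different number correlated at -0.102 to 0.0703. With 3 mice per group and many weak regions, these values cannot exclude a pairing. With the mouse number as a replicate block, 2540 regions were higher and 580 lower, and the long Myh7 region passed (limma, adjusted p = 0.0228). Of 100 values for single regions under these alternatives, 74 kept direction and call, 18 lost the call, 2 gained it and 6 changed sign, all 6 at the long Myh6 and Myh7b start regions, neither of which was called. The 74 include uncalled regions that stayed uncalled. The call was lost in 5 of 13 alternatives at the short Myh7 3′ region. It was lost in 5 of 12 at the Myh7b upstream region and in 8 of 12 at the first inner Myh7b region. The planned ratio of Myh6 to Myh7 sums has no information with the 10 kb extension, where both rest on the same regions. Depth limits the Myh7b regions, with 4 to 44 reads per library.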

Other observations

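Among the 10 strongest regions of the table by mean CPM, 1 was called higher, where 14.7% of all regions were. It lay at the Z-disc gene Ldb3 (log2 fold change 0.68 ± 0.14 SE, limma, adjusted p = 0.000163). Of the same 10 regions, 2 were called lower, where 3.17% of all regions were. The region at Atp2a2, the calcium pump gene, was 1 of these 2 (-0.61 ± 0.14, limma, adjusted p = 0.000756). The long Myh6 and Myh7 regions and the regions at Pln (phospholamban, log2 fold change 0.16 ± 0.15), Tnnt2 (cardiac troponin T, -0.05 ± 0.15) and Myl2 (0.03 ± 0.14) were not called. Control mouse 3, the library with the fewest reads, had the lowest value of the control mice at 10 of these 10 regions, and at 37.1% of all regions. The part of depth in this was not tested.

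The highest CPM per kb in the table was at the 2 regions of Esr1, followed by 2 regions at Tex14 with 638 and 636 CPM per kb and by the long Myh6 region. A1cf, the gene named in the strain designation of the Cre line, had 0 regions within 10 kb.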
